A study of Mus musculus with 5 samples.

Results

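The cells described here were those that the authors' clustering had placed in cluster 1 and that held at least 1 raw UMI of Cd8a or Cd8b1, the genes of the 2 CD8 coreceptor chains, together with 0 UMIs of Cd4. A UMI tags 1 captured transcript molecule. They were thus chosen by measured values, and the rule found 361 cells among the 1343 cells of cluster 1 and the 10275 cells of the series. They are called the CD8 effector cells below, and the 570 cells of cluster 1 with at least 1 Cd4 UMI and no Cd8a or Cd8b1 UMI are called the CD4 cells of cluster 1.

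All cells were live CD45+ cells sorted from collagenase-digested thyroids of NOD.WT mice, an autoimmunity-prone strain, and both sexes were used. Mice aged 4 to 6 weeks at the start received anti-PD-1 (clone RPM1-14) together with anti-CTLA-4 (clone 9D9), at 10 mg/kg per dose, by intraperitoneal injection for 4 weeks (immune checkpoint inhibition, ICI). Control mice received isotype antibodies (clones 2A3 and MPC11) on the same schedule. The design text gives 16 ICI mice and 10 isotype mice, pooled into 4 ICI libraries and 1 isotype library of 10x Genomics 5' single-cell sequencing, and the sources do not say how many mice each library held. The CD8 effector cells numbered 49, 103, 105 and 89 in ICI 1 to 4 and 15 in isotype. Because the libraries are pools, p-values measure only the spread between these libraries.

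CD8 T cells recognise peptides held by class I major histocompatibility molecules and kill target cells with perforin and granzymes, which they store in granules. PD-1 (Pdcd1) and CTLA-4 (Ctla4) are inhibitory receptors that T cells display after activation, and antibodies that block both are cancer drugs whose known side effects include inflammation of the thyroid. CD4 helper T cells act instead through surface ligands such as CD40 ligand and through cytokines.

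The CD8 effector cells of ICI 1 to 4 held 120444, 360742, 422330 and 489310 UMIs, and those of isotype held 59429, so that 1 isotype UMI was worth 16.8 CPM, a count scaled to a common total per library, and 3 were worth 50.5 CPM. Median depth per cell was 2103, 2936, 3815 and 4816 UMIs in ICI 1 to 4 and 3382 UMIs in isotype. ICI 4 and isotype stood apart from ICI 1 to 3. Over all cells, the red cell globin gene Hbb-bs had 0 UMIs in each of ICI 1 to 3, 26385 in ICI 4 and 3218 in isotype. Xist, a gene of female cells, counted 2563, 614, 664 and 4 over ICI 1 to 4, against 0 for isotype. The Y-linked gene Eif2s3y was seen in 4.53%, 17.6%, 19.3% and 42.7% of cells of ICI 1 to 4, against 37.7% in isotype. The mix of sexes thus differed between libraries, and ICI 1 to 3 differ from isotype in sex as well as treatment. In the CD8 effector cells themselves Hbb-bs had 8 UMIs in ICI 4 and 1 in isotype. ICI 2 and ICI 3 shared 140 cell barcodes, against at most 12 for any other pair of libraries, and 2 of the 140 were CD8 effector cells in both. The sources do not say whether these 2 libraries are independent captures, and if they are not, the 4 ICI libraries count for fewer. The barcodes of ICI 4 carried 2 suffixes, with 2599 and 2419 cells. The part of these differences in the results below was not tested, and ICI is compared with a single isotype library.

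Both parts of the rule used measured values, so the genes that set these cells apart from the other clusters are a description. Gzmk, which encodes a granzyme of memory-type CD8 cells, stood at 703 CPM in the CD8 effector cells and 28.8 CPM in all other cells. Ccl5, a chemokine stored by effector CD8 and NK cells, stood at 11391 CPM in the CD8 effector cells and 522 CPM in all other cells, and Nkg7, a cytotoxic granule membrane protein, at 2146 CPM in the CD8 effector cells and 221 CPM in all other cells. Cxcr3, a chemokine receptor for interferon-induced ligands, was at 397 CPM in the CD8 effector cells and 82.0 CPM in all other cells. It does not set them apart within cluster 1. In the CD4 cells it was at 651, 769, 752 and 215 CPM in ICI 1 to 4. The CD8 effector cells of those libraries had 473, 552, 519 and 198 CPM. In isotype the values were 513 CPM in CD4 cells and 84.1 CPM in CD8 effector cells. The collagen-binding integrin gene Itga1 was at 255 CPM in the CD8 effector cells and 32.9 CPM in all other cells. The markers given for the label were thus all present, and Cd3e was seen in 96.4% of the cells. Several genes that define other cells were scarce. Lyz2 of myeloid cells had 0 UMIs. The gamma-delta receptor gene Trdc was seen in 1.11% of the cells and the regulatory T cell factor Foxp3 in 1.39%. Other such genes were present. The 10 listed myeloid genes summed to 199 to 237 CPM in ICI libraries and 623 CPM in isotype. For the 8 listed B cell genes the sums were 141 to 274 CPM and 33.7 CPM. Leaving out cells with 2 or more UMIs of these genes left 34, 64, 54 and 44 cells in ICI 1 to 4 and 9 in isotype. The gamma-chain gene Trgv2 was seen in 25.1% of CD8 effector cells of ICI libraries and 3.75% of CD4 cells. NK markers were not absent: the 10 listed summed to 307 to 756 CPM in the ICI libraries and 1346 CPM in isotype, with Klrb1c, Klra8 and Klra7 at 0 in ICI. Much of that sum was the granzyme gene Gzma, at 158 to 658 CPM in ICI and 942 CPM in isotype. Ncr1 was at 2.04 to 30.5 CPM in ICI and 0 CPM in isotype.

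Cd8a and Cd8b1 were both detected in 280 of the 361 cells, Cd8a alone in 47 and Cd8b1 alone in 34, with a median of 7 UMIs for the pair and a highest value of 30. The 34 cells at the threshold, with 1 UMI of the pair, lay between the whole set and the CD4 cells of cluster 1. Ccl5 was at 3282 CPM in those 34 cells, 11391 CPM in all 361 and 2127 CPM in the CD4 cells, and Cd40lg, the CD40 ligand gene, was at 173 CPM in the 34 cells, 28.9 CPM in all 361 and 462 CPM in the CD4 cells. Just outside the rule, the 374 cells of cluster 1 with no coreceptor UMI had 2576 CPM of Ccl5 and 387 CPM of Cd40lg, and the 38 cells with both coreceptors had 4445 and 346 CPM. In cluster 14, whose cells carry B cell markers, 12 of 160 cells (7.50%) met the coreceptor part of the rule. Median depth was 3693 UMIs there, and this pooled share is a rough guide to the background of the rule. It cannot give the background within ICI 2 or ICI 3, which held 5 cells of cluster 14 each.

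CD8 effector cells made up a larger share of the infiltrate in each ICI library than in isotype, but the exact test over libraries did not separate the groups. They were 3.22%, 8.45%, 9.03% and 1.77% of all cells in ICI 1 to 4, against 1.11% in isotype (exact Clopper-Pearson 95% interval 0.622 to 1.82%). ICI 4 lay closest to isotype, and their counting intervals overlapped. The mean was 5.62% ± 3.66 in ICI (SD, n = 4), 4 of 4 ICI libraries lay above isotype, and the exact two-sided permutation test over libraries gave p = 0.6, where the smallest p that 4 libraries against 1 can give is 0.2. Intervals cover counting error only, and a share also moves with every other cell type in the sort. Clusters 2, 5 and 11 carried thymocyte genes, with Dntt seen in 52.9% of their cells and Rag1 in 20.6%, against 0.277% and 0% of the CD8 effector cells. They made up 13.3%, 3.28%, 4.04% and 25.8% of the cells of ICI 1 to 4, against 42.5% in isotype. With them out of the denominator the CD8 effector shares were 3.71%, 8.74%, 9.41% and 2.39% in ICI 1 to 4, against 1.93% in isotype, with exact permutation p = 0.6.

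Among cluster 1 cells typed by coreceptor the CD8 share was lower under ICI, at 24.1%, 42.9%, 47.1% and 37.1% in ICI 1 to 4, against 60.0% in isotype (15 of 25 cells, interval 38.7 to 78.9%). No ICI library reached the isotype value, though the isotype interval held 2 of them, and the exact permutation test gave p = 0.4. With each cell thinned to 1000 UMIs the values were 51.3% on average in ICI and 83.3% in isotype, with exact p = 0.2. Of all cluster 1 cells, typed or not, CD8 effector cells were 12.5%, 32.9%, 38.9% and 27.6% in ICI 1 to 4. The isotype value was 33.3%, so ICI 3 lay above it (exact permutation p = 0.6). The distribution of CD8 cells over the T cell clusters varied widely between ICI libraries. Of the CD8 single-positive cells in clusters 0, 1, 3, 4, 6 and 9, cluster 1 held 54.4%, 75.7%, 70.9% and 8.99% in ICI 1 to 4, against 18.5% in isotype. In ICI 4 most of the others lay in cluster 3, whose CD8 cells carry the recirculation gene Ccr7 and made up 14.0% of all ICI 4 cells, against 1.89 to 2.75% in ICI 1 to 3 and 3.18% in isotype.

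**Figure D1:**
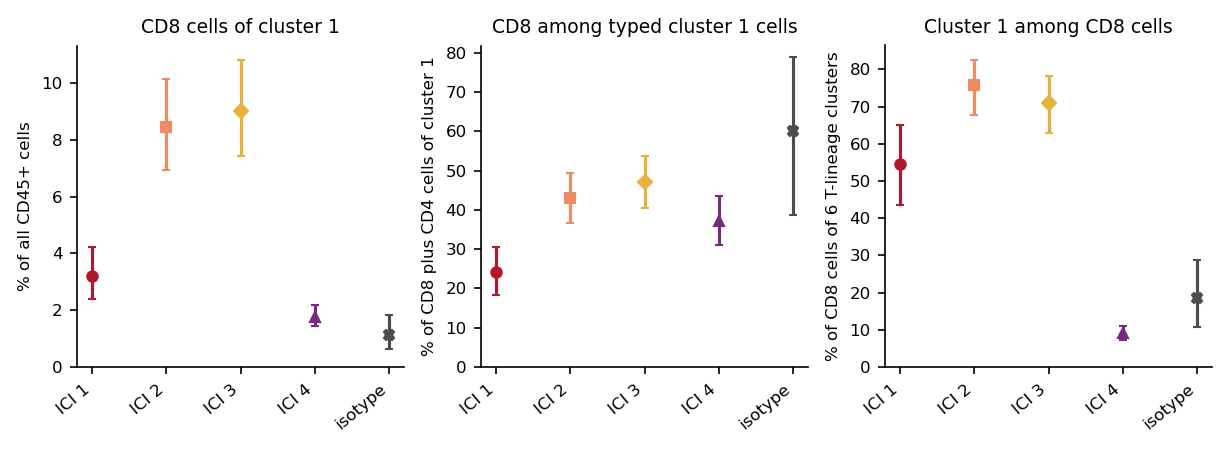
Share of CD8 effector cells among all cells (left), CD8 share of the coreceptor-typed cells of cluster 1 (middle) and share of the CD8 single-positive cells of clusters 0, 1, 3, 4, 6 and 9 that lay in cluster 1 (right), in percent, by library. Points are libraries and bars are exact 95% binomial intervals. ICI 2 and ICI 3 are highest in the left and right panels, and ICI 4 lies near isotype in the left panel and below it in the right one.

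Within cluster 1, the CD8 effector cells differed from the CD4 cells of the same libraries in cytotoxic granule genes, NK-type lectin receptors and chemokines, which were higher, and in helper ligands and immediate early genes, which were lower. UMIs were summed per library and set, and the 4 ICI libraries were compared in pairs. Of 5968 genes tested, 142 were higher in CD8 effector cells (2.38%) and 189 were lower (3.17%), together 5.55%, at an adjusted p under 0.05, and 929 had an unadjusted p under 0.05. In all 4 pairs the CD8 value lay on the called side for 128 of the 142 higher genes and 166 of the 189 lower ones. Among all genes tested CD8 lay above CD4 in every pair for 8.68% and below it for 14.7%. The isotype pair, which took no part in the test, had CD8 above CD4 for 113 of the 142 (79.6%) and below it for 136 of the 189 (72.0%), against 47.3% and 47.2% of all genes tested. A gene high in 1 set alone can pass the filter on low counts through that set, so the counts of list members below describe the genes that passed and are no test of a list. With ICI 2 and ICI 3 summed into 1 library, 118 genes were higher and 190 lower. Without the pairing by library, 21 genes were higher and 9 lower. DESeq2 called 60 and 62.

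**Figure D2:**
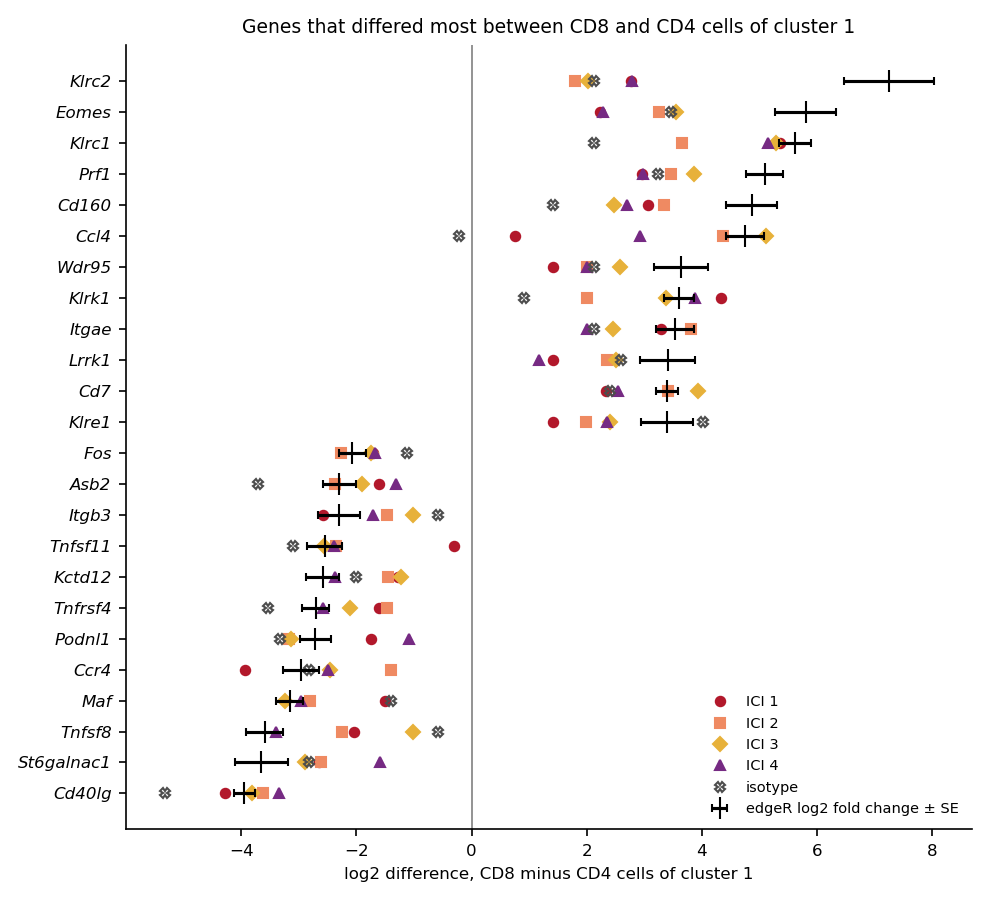
Log2 differences between CD8 effector cells and CD4 cells of cluster 1 for the 12 genes with the largest called change in each direction. Coloured points are single libraries, computed as log2 of CPM plus 10, which pulls low genes toward 0, and black ticks with bars are edgeR log2 fold changes ± SE over the 4 ICI libraries. All ICI points lie on the called side for these 24 genes, as the naming rule required.

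The promoters of 4 genes that were higher and 1 that was lower are shown because the RUNX and T-box factors, which read the letters TGTGGT and TCACAC, are known regulators of CD8 effector genes. The 5 were picked by hand and do not represent the called genes, most of which hold no RUNX letters. Each line gives the 250 bases before the start of the gene in RefSeq (GRCm38.p6), 5′ to 3′ on the gene's own strand, with matches to either motif on either strand in capitals (ACCACA and GTGTGA are the reverse complements).
Prf1 (chr10:61297586-61297835, + strand): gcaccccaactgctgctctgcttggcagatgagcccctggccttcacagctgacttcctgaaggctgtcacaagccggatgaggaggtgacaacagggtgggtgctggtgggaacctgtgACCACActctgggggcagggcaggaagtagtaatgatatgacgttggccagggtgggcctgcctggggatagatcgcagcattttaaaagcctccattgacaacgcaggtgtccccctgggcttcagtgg
Gzmb (chr14:56262335-56262584, - strand): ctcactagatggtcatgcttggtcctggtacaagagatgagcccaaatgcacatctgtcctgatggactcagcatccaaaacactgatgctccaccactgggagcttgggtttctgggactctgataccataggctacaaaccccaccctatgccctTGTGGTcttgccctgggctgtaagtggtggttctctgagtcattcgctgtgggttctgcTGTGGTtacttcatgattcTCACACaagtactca
Nkg7 (chr7:43436888-43437137, + strand): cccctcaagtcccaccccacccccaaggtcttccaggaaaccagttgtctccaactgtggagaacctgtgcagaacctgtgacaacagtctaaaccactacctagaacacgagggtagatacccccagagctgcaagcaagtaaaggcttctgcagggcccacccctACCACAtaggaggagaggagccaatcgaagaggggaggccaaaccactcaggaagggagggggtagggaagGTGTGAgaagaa
Klrc1 (chr6:129678974-129679223, - strand): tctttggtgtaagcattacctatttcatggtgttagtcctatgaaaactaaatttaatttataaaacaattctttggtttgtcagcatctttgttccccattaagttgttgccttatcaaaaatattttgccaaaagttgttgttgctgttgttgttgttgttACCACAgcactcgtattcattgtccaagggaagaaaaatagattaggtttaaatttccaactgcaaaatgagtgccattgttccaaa
Tnfsf8 (chr4:63861285-63861534, - strand): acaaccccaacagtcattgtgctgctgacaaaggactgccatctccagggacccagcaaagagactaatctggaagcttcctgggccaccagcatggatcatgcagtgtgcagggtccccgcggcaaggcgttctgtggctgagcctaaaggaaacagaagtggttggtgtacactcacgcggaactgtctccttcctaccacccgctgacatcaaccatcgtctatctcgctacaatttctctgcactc

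The RUNX letters occurred in the 250 bases of 20 of the 105 higher genes with a promoter in the table (19.0%) and of 9 of the 145 lower genes (6.21%). Among all genes tested they occurred in 10.8%, and among all 27025 promoters in 14.2%. For the T-box letters the shares were 14.3% of higher genes, 6.90% of lower genes, 8.83% of genes tested and 12.2% of all promoters. Prf1 and Klrc1 held 1 RUNX match each, Gzmb held 2 RUNX matches and 1 T-box match, Nkg7 held 1 of each, and Tnfsf8 held none. A match to these letters is a description of the sequence, not a binding site, and neighbouring genes of a family can share promoter sequence.

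Cytotoxic granule genes included many that were higher. Of 17 listed genes, 15 passed the filter on low counts, 11 were higher and 0 lower, with a median log2 fold change of 0.84 against -0.00 for all genes tested. Prf1, which encodes the pore-forming protein perforin, stood at 116, 152, 168 and 89.9 CPM in CD8 effector cells of ICI 1 to 4 and at 6.20, 4.63, 2.22 and 2.68 CPM in CD4 cells of the same libraries. The ranges did not overlap, the log2 fold change was 5.09 ± 0.33 (SE), and the adjusted p was 1.82e-13. In isotype Prf1 was at 84.1 CPM in CD8 effector cells and had 0 UMIs in CD4 cells.

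Gzmk stood at 523, 801, 987 and 446 CPM in CD8 effector cells of ICI 1 to 4, against 239, 348, 412 and 102 CPM in CD4 cells. CD8 was higher in each pair, although the CD4 cells also carried Gzmk, and the log2 fold change was 1.49 ± 0.13 (adjusted p = 4.05e-10). Nkg7 rose by 1.51 ± 0.13 (log2) and Cst7, an inhibitor of granule proteases, by 1.52 ± 0.18, each in 4 of 4 pairs. Ctsw, a protease of killer lymphocytes, had a smaller change of 0.62 ± 0.14, and Fasl, the death receptor ligand gene, of 0.49 ± 0.14.

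The granzymes that act in acute killing varied far more between libraries. Gzmb was at 8.30, 72.1, 308 and 566 CPM in CD8 effector cells of ICI 1 to 4, against 15.5, 9.27, 0 and 84.5 CPM in CD4 cells. CD8 was higher in 3 of 4 pairs, and in ICI 1 the CD8 value rested on 1 UMI. The log2 fold change was 3.16 ± 0.30 (adjusted p = 2.22e-09) in the paired fit, and DESeq2 did not call Gzmb. Gzma was at 158, 460, 455 and 658 CPM in CD8 effector cells, against 871, 130, 33.3 and 109 CPM in CD4 cells, so ICI 1 ran the other way. Its log2 fold change of 1.52 ± 0.37 (adjusted p = 0.00859) was lost without ICI 2 and by DESeq2.

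NK-type lectin receptors had some of the largest changes. Of 18 listed genes 13 did not pass the filter, and the 5 that passed, Klrc2, Klrc1, Klrk1, Klre1 and Klrd1, were higher in all 4 pairs. Klrc2, Klrc1 and Klre1 had 0, 20 and 10 UMIs in CD4 cells of the ICI libraries, so they passed through their CD8 counts. Klrc1 and Klrd1 encode the 2 chains of the inhibitory receptor NKG2A-CD94, and Klrk1 encodes the activating receptor NKG2D. Klrc1 stood at 399, 552, 469 and 535 CPM in CD8 effector cells of ICI 1 to 4 and at 0, 34.8, 2.22 and 5.37 CPM in CD4 cells. The ranges were far apart, and the log2 fold change was 5.62 ± 0.27 (adjusted p = 1.46e-16).

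Klrd1 was at 415, 338, 329 and 194 CPM in CD8 effector cells, against 71.3, 41.7, 24.4 and 13.4 CPM in CD4 cells, a log2 fold change of 3.29 ± 0.19, and Klrk1 rose by 3.61 ± 0.26. Klrc2, which encodes an activating partner of CD94, had 58 UMIs in CD8 effector cells and 0 in CD4 cells over the ICI libraries, at least 27.1-fold higher in CD8 when 3 UMIs over the group are taken as the floor. Klrc1 and Klrc2 are close relatives in sequence, and the division of reads between them is uncertain. The 10 NK markers together stood at 307 to 756 CPM in CD8 effector cells and 55.4 to 899 CPM in CD4 cells of ICI libraries, with 3 of the 10 at 0 in both, and their part in these differences was not tested. Gzma, 1 of the 10, was itself at 158 to 658 CPM in CD8 effector cells and 33.3 to 871 CPM in CD4 cells of those libraries. In isotype, Klrc1 was at 959 CPM in CD8 effector cells and 211 CPM in CD4 cells. The signalling adaptors of NK cells did not come with these receptors. Tyrobp was at 0 to 9.47 CPM and Fcer1g at 0 to 16.6 CPM in CD8 effector cells of ICI libraries. In cluster 8, whose cells carry NK markers, Tyrobp was at 285 to 556 CPM and Fcer1g at 737 to 2246 CPM.

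Chemokine genes were higher for 3 of the 4 listed genes that passed the filter, of 12 listed. Ccl5 stood at 7323, 11942, 15940 and 8020 CPM in CD8 effector cells of ICI 1 to 4, against 3896, 2647, 2548 and 872 CPM in CD4 cells. Every CD8 value exceeded every CD4 value, and the log2 fold change was 2.31 ± 0.19 (adjusted p = 8.96e-11). Ccl4, an inflammatory chemokine, was at 33.2, 291, 414 and 147 CPM in CD8 effector cells, against 15.5, 4.63, 2.22 and 10.7 CPM in CD4 cells, with a log2 fold change of 4.75 ± 0.33. Xcl1, which attracts cross-presenting dendritic cells, rose by 1.24 ± 0.15. Among the chemokine receptors described here, Cx3cr1 was called higher, though not higher in all 4 pairs, and Ccr4, Ccr8 and Cxcr4 were called lower. Ccr4, a receptor of type 2 helper cells among others, was at 0, 19.4, 4.74 and 18.4 CPM in CD8 effector cells, against 143, 67.2, 71.0 and 149 CPM in CD4 cells (log2 fold change -2.95 ± 0.31).

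Among transcription factors and cytokines of type 1 immunity, 1 of 15 tested genes was higher and 2 were lower. Eomes, a T-box factor of CD8 memory and NK cells, was at 66.4, 85.9, 107 and 38.8 CPM in CD8 effector cells and had 6.20 CPM in CD4 cells of ICI 1 and 0 UMIs in those of ICI 2 to 4. The pooled ratio was 72.1 with a counting interval of 19.5 to 603, because the CD4 side held 2 UMIs. Tbx21, its relative that is shared by type 1 CD4 and CD8 cells, was at 133, 177, 142 and 79.7 CPM in CD8 effector cells, against 208, 285, 166 and 80.5 CPM in CD4 cells and did not pass (log2 fold change -0.33 ± 0.16, adjusted p = 0.299). Ifng, the gene of interferon-gamma, was lower in the CD8 effector cells in 4 of 4 pairs. It was at 24.9, 116, 194 and 69.5 CPM in CD8 effector cells, against 158, 352, 217 and 211 CPM in CD4 cells, and the log2 fold change of -1.10 ± 0.20 (adjusted p = 2.48e-04) was not called in thinned cells. Runx3, a factor of CD8 lineage choice, had a log2 fold change of 0.05 ± 0.14 and did not pass.

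Of 15 listed helper genes 10 passed the filter, of which 8 were lower and 0 higher. Some, such as Tnfsf8 with 14 UMIs in CD8 effector cells and 268 in CD4 cells of the ICI libraries, passed through their CD4 counts. Cd40lg stood at 8.30, 44.4, 26.0 and 28.6 CPM in CD8 effector cells of ICI 1 to 4, against 344, 663, 495 and 380 CPM in CD4 cells. Every CD4 value lay far above every CD8 value, and the log2 fold change was -3.95 ± 0.18 (adjusted p = 6.82e-17). Maf, a factor of helper cell cytokine programmes, was at 66.4, 22.2, 16.6 and 18.4 CPM in CD8 effector cells, against 208, 216, 242 and 211 CPM in CD4 cells. Tnfrsf4, the costimulatory receptor OX40, was at 33.2, 2.77, 0 and 114 CPM in CD8 effector cells, against 121, 25.5, 33.3 and 731 CPM in CD4 cells, lower in each pair but highest in ICI 4 on both sides. Tnfsf8 (CD30 ligand), Tnfsf11 (RANK ligand), Icos and Il2 were also lower, with log2 fold changes of -3.59 ± 0.32, -2.55 ± 0.30, -1.21 ± 0.14 and -2.59 ± 0.40. Il2 was lower in 3 of 4 pairs, and its call was lost without ICI 4 and by DESeq2, which did not call Tnfsf11 either. The other genes with the largest falls were St6galnac1, Podnl1, Kctd12, Itgb3 and Asb2, between -3.65 and -2.29.

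The receptors that the antibodies target went in opposite directions. Pdcd1 stood at 108, 166, 137 and 705 CPM in CD8 effector cells of ICI 1 to 4 and at 43.4, 118, 88.7 and 301 CPM in CD4 cells, higher in CD8 in 4 of 4 pairs by a log2 fold change of 0.97 ± 0.15 (SE, adjusted p = 3.41e-05). Ctla4 stood at 16.6, 41.6, 45.0 and 292 CPM in CD8 effector cells and at 52.7, 81.1, 109 and 484 CPM in CD4 cells, lower in 4 of 4 pairs with a log2 fold change of -0.89 ± 0.17 (adjusted p = 4.85e-04), a call that DESeq2 did not make. For both genes ICI 4 was several times the other libraries in both cell sets, so the libraries overlap across sets and the difference shows only within pairs. Of 15 listed coinhibitory and chronic stimulation genes 10 were tested, of which 6 were higher and 2 lower. Cd160, a receptor of the ligand HVEM, was at 99.6, 91.5, 94.7 and 55.2 CPM in CD8 effector cells, against 3.10, 0, 8.87 and 0 CPM in CD4 cells. Lag3, a receptor for class II molecules, rose by 2.32 ± 0.33, Tigit by 1.05 ± 0.20 and Tox, a factor of chronically stimulated cells, by 0.94 ± 0.23. The call on Tigit was lost in cells thinned to 1000 UMIs. The call on Tox was lost without any one of ICI 1, ICI 2 or ICI 3. Havcr2 (TIM-3) did not pass the filter and stood at 0 to 10.2 CPM in the CD8 effector cells of ICI libraries.

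Itgae, the integrin chain that holds T cells to epithelium, was the only one of 10 tested residency genes that was higher, and 4 were lower. It was at 241, 130, 56.8 and 116 CPM in CD8 effector cells of ICI 1 to 4, against 15.5, 0, 2.22 and 21.5 CPM in CD4 cells, a log2 fold change of 3.54 ± 0.33 (adjusted p = 1.63e-09). Itga1 was at 399, 416, 313 and 71.5 CPM in CD8 effector cells, against 415, 331, 286 and 34.9 CPM in CD4 cells, and did not pass (adjusted p = 0.184). Cd69, an early activation and retention marker, did not pass either (log2 fold change -0.13 ± 0.14). Of 13 tested recirculation and memory genes only Il7r, the interleukin-7 receptor gene, was called, lower in 4 of 4 pairs with a log2 fold change of -0.96 ± 0.15. Tcf7 and Ccr7 were not called.

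Of 17 immediate early and dissociation genes tested, 12 were lower and 0 higher, at a median log2 fold change of -0.79. Junb was at 191, 233, 488 and 1451 CPM in CD8 effector cells of ICI 1 to 4 and at 676, 1247, 1218 and 2816 CPM in CD4 cells. Fos and the receptor-signal gene Nr4a1 were lower too, with log2 fold changes of -2.07 ± 0.24 and -1.38 ± 0.15. Nr4a2, a related gene on the coinhibitory and chronic stimulation list, was called higher. Such genes are known to respond to antigen receptor signals and to tissue digestion. No gene of the class I presentation list (15 tested) or the proliferation list (11 tested) was called, and the interferon response list had 1 higher gene, Ly6a, and 1 lower gene, Gbp6, of 19 tested. Cd7, a T cell surface protein, Crtam, an adhesion receptor of cytotoxic cells, and Cd27, a costimulatory receptor, were higher by 3.39 ± 0.20, 2.90 ± 0.40 and 1.50 ± 0.19. The less well known Lrrk1, a kinase gene, and Wdr95 were higher by 3.40 ± 0.48 and 3.63 ± 0.47.

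**Figure D3:**
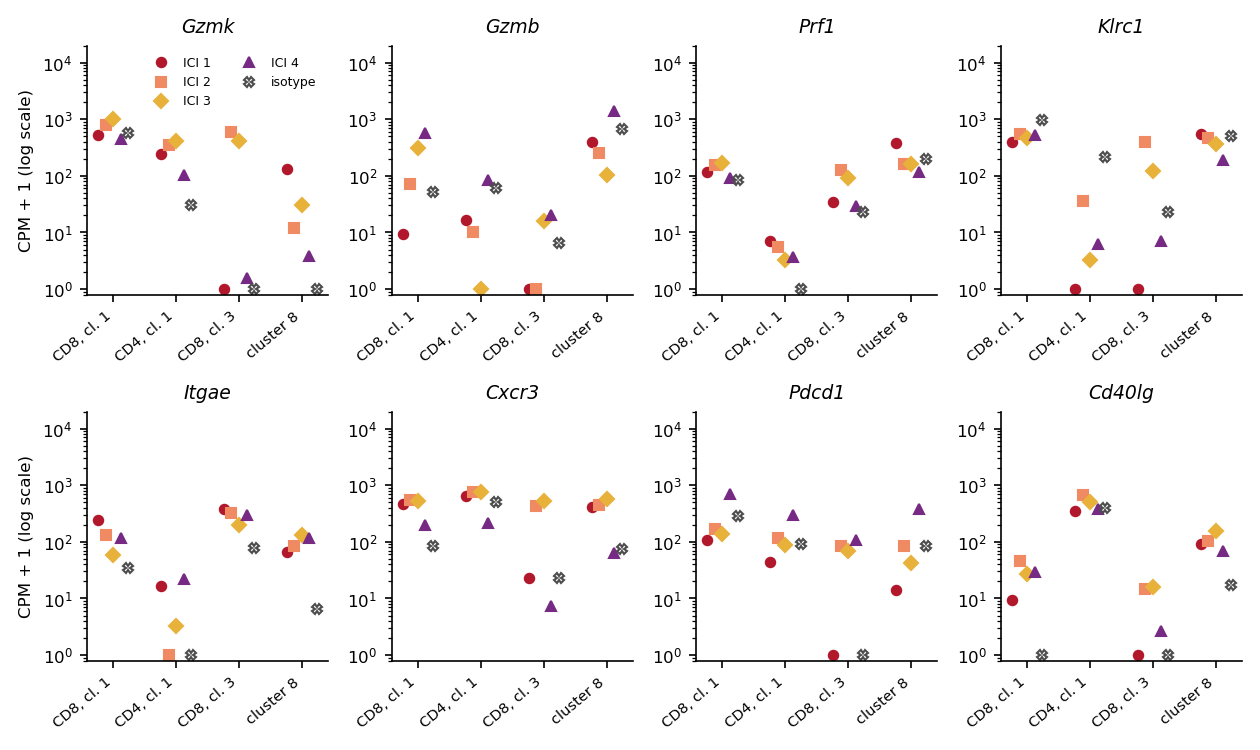
Levels of 8 genes in CD8 effector cells, CD4 cells of cluster 1, CD8 cells of cluster 3 and cluster 8, as CPM plus 1 on a log scale, with 1 point per library. Prf1, Klrc1 and Itgae separate CD8 effector cells from CD4 cells of cluster 1 in every library, and in CD8 cells of cluster 3 Gzmk is high in ICI 2 and ICI 3 only.

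Against the 829 CD8 cells of cluster 3, the values are a description, since the clustering used these genes. Gzmk was at 523, 801, 987 and 446 CPM in CD8 effector cells of ICI 1 to 4, and at 0, 597, 418 and 0.553 CPM in CD8 cells of cluster 3. In isotype it was at 572 CPM in CD8 effector cells and 0 CPM in CD8 cells of cluster 3. The cluster 3 cells of ICI 2 and ICI 3, which number 23 and 32, thus carried far more Gzmk than those of ICI 1, ICI 4 and isotype, and so it was for Ccl5, with 44.4, 6265, 8850 and 27.4 CPM in ICI 1 to 4 and 345 CPM in isotype. Itgae was lower in the CD8 effector cells in each library, at 241, 130, 56.8 and 116 CPM in ICI 1 to 4, against 377, 320, 198 and 299 CPM in CD8 cells of cluster 3. Prf1 was at 89.9 to 168 CPM and Gzmb at 8.30 to 566 CPM in CD8 effector cells of ICI libraries, against 115 to 375 CPM and 102 to 1414 CPM in cluster 8. Gzmk was at 446 to 987 CPM, against 2.88 to 129 CPM in cluster 8.

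Beta-chain V segments were detected in 340 of the 361 CD8 effector cells and alpha-chain V segments in 320. Of 16 beta segments tested, 5 were higher and 2 lower than in CD4 cells, and of 14 alpha segments 1 was higher and 4 were lower. Among all genes tested, 2.38% were higher and 3.17% lower. Trbv13-2 was the segment seen in most cells, in 28.6%, 15.5%, 30.5% and 29.2% of CD8 effector cells of ICI 1 to 4 and 24.0%, 21.9%, 28.0% and 23.2% of CD4 cells, with no call (log2 fold change -0.24 ± 0.15). Trbv17 was seen in 6, 13, 9 and 5 CD8 effector cells, against 5, 1, 5 and 0 CD4 cells, and in none of the 15 isotype cells, which allows a share of up to 20%. Its log2 fold change was 3.41 ± 0.38 (adjusted p = 6.72e-08).

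Trbv17, Trbv1, Trav7-3 and Trav13-1 are named after their values were seen. Trbv13-3 was seen in 11.3% of CD8 effector cells and 5.36% of CD4 cells over the ICI libraries, with a log2 fold change of 1.23 ± 0.18. Trbv19 and Trbv12-2 were called higher too, by 0.70 ± 0.21 and 0.90 ± 0.26. Trav13n-4, the alpha segment seen in most CD8 effector cells, was not called (0.82 ± 0.37). Trbv1 was seen in 4.05% of CD8 effector cells and 11.4% of CD4 cells, with a log2 fold change of -2.06 ± 0.19. Among alpha segments, Trav7-3 was seen in 8.09% of CD8 effector cells and 2.50% of CD4 cells, with 17 of its 28 CD8 cells in ICI 3. Trav13-1 was seen in 1.73% of CD8 effector cells and 7.86% of CD4 cells. Several of these segments are near-identical in sequence, so the assignment of reads among them is uncertain. The tables give no paired receptor sequences, so cells that share a segment are not known to share a clone.

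**Figure D4:**
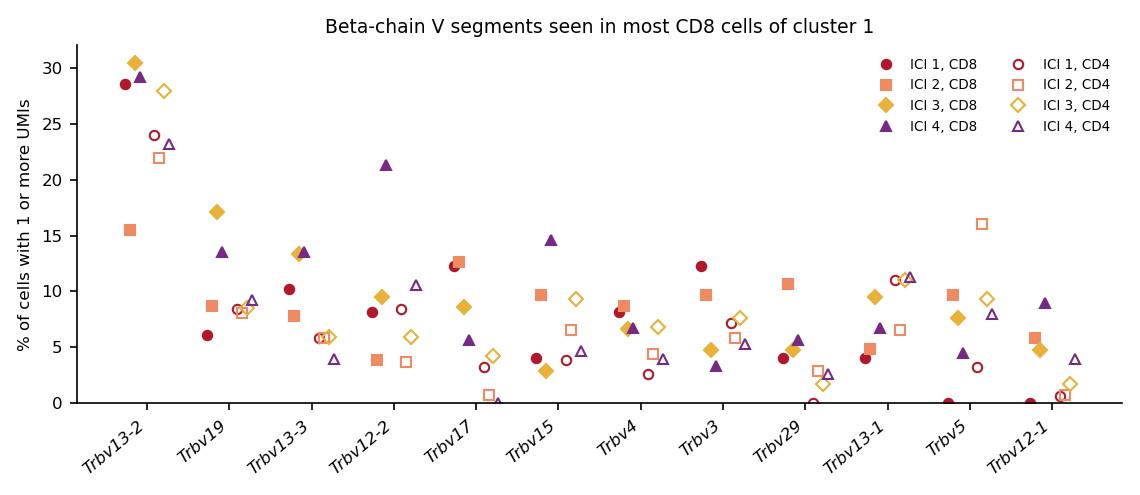
Percent of cells with at least 1 UMI of each of the 12 beta-chain V segments seen in most CD8 effector cells, by ICI library, for CD8 effector cells (filled) and CD4 cells of cluster 1 (open). Trbv13-2 is the most frequent in both, and the CD8 points of Trbv17, at 5.62 to 12.6%, lie above all CD4 points, at 0 to 4.24%.

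Single cells differed in how many cytotoxic genes were detected in them, and whether this exceeds what depth gives was not tested. Of 6 genes (Gzma, Gzmb, Gzmk, Prf1, Ccl5 and Nkg7), 16 ICI cells held UMIs of all 6 and 7 held none, and 5 of those 7 were in ICI 1, the shallowest library. Gzmk was detected in 257 of 346 ICI cells, and Gzmb in 66, of which 53 also held Gzmk. Prf1 was detected with Gzmk in 103 cells and without it in 22. Klrc1 was found in 140 of the 257 Gzmk cells and in 31 of the 89 others. Tcf7, a factor of memory and self-renewing T cells, was found in 39 of the 126 Pdcd1 cells and in 76 of the 220 others. These counts depend on depth and pool 4 ICI libraries in which detection differed. Gzmk was detected in 51.0%, 83.5%, 85.7% and 62.9% of cells in ICI 1 to 4, and Klrc1 in 28.6%, 44.7%, 52.4% and 62.9%. Association of these genes within a library was not tested. In B-marked cluster 14, shares of ICI cells with a UMI were 0.694% for Gzmk, 0.694% for Gzmb, 2.78% for Prf1 and 0% for Klrc1. Median depth was 3733 UMIs there and 3630 UMIs in the CD8 effector cells.

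Between ICI and isotype, 1 of 6940 genes tested in the CD8 effector cells passed the threshold (0.0144%), and it was lower in ICI, while 444 genes (6.4%) had an unadjusted p under 0.05 by edgeR. That gene, Tg, encodes thyroglobulin, the hormone precursor made by thyroid follicle cells. It had 1 UMI in ICI 3, 0 in the other ICI libraries and 137 UMIs in isotype, all 137 in 1 cell (log2 fold change -11.01 ± 0.57, adjusted p = 7.78e-07). With the highest cell of each gene left out, Tg did not pass the filter and edgeR called 0 genes, although 457 had an unadjusted p under 0.05. By DESeq2, 3 genes were lower and 0 were higher, and 136 were under 0.05 before adjustment. Each ICI library lay above isotype for 38% of all genes tested and below it for 22%, and the smallest set, isotype, held 15 cells. Without ICI 4, 9 genes were higher and 54 lower.

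The cytotoxic and chemokine genes gave no shared direction. Ccl5 was at 7323, 11942, 15940 and 8020 CPM in ICI 1 to 4 and 11711 CPM in isotype, within the ICI range. Gzmk was at 523, 801, 987 and 446 CPM in ICI and 572 CPM in isotype (Poisson 95% interval 396 to 799 CPM). Gzmb was at 8.30, 72.1, 308 and 566 CPM in ICI, against 50.5 CPM in isotype, where it rested on 3 UMIs. Gzma was lower than isotype in all 4 ICI libraries, at 158 to 658 CPM against 942 CPM, with 82.1% of the isotype UMIs in 1 cell. Prf1 was above isotype in all 4, at 89.9 to 168 CPM against 84.1 CPM, inside the isotype interval of 27.3 to 196 CPM. None of the 15 cytotoxic genes tested was called.

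The targets of the antibodies were not called either. Pdcd1 was at 108, 166, 137 and 705 CPM in ICI 1 to 4 and 286 CPM in isotype, a log2 fold change of -0.00 ± 0.99, and 1 of 4 ICI libraries was above isotype. Ctla4 was at 16.6, 41.6, 45.0 and 292 CPM in ICI and 67.3 CPM in isotype (log2 fold change 0.68 ± 1.57). These are RNA levels, and receptor protein was not measured here. Tigit was below the isotype level in each ICI library, at 41.5 to 258 CPM against 269 CPM. Ifng was at 24.9, 116, 194 and 69.5 CPM in ICI and 33.7 CPM in isotype, above it in 3 of 4 libraries.

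Cxcr3 and Il7r lay on 1 side of isotype in each ICI library, and neither passed adjustment. Such a position is common, as 38% of all genes tested lay above isotype in each ICI library and 22% below. Cxcr3 was at 473, 552, 519 and 198 CPM in ICI, against 84.1 CPM in isotype (interval 27.3 to 196 CPM), with 4 of 4 libraries above isotype and a log2 fold change of 2.28 ± 0.74 (unadjusted p = 0.00946, adjusted p = 0.743 by edgeR). Il7r was at 324, 111, 109 and 227 CPM, against 572 CPM in isotype (interval 396 to 799 CPM), with 4 of 4 below isotype and a log2 fold change of -1.70 ± 0.55 (unadjusted p = 0.00871, adjusted p = 0.743 by edgeR). Klrc1 was at 399 to 552 CPM in ICI, against 959 CPM in isotype, where it was found in 14 of 15 cells (unadjusted p = 0.0218, adjusted p = 0.743 by edgeR). Itgae was at 56.8 to 241 CPM, against 33.7 CPM, with both isotype UMIs in 1 cell. With 1 isotype library of 15 cells, a gene that did not pass is not shown to be alike in both.

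**Figure D5:**
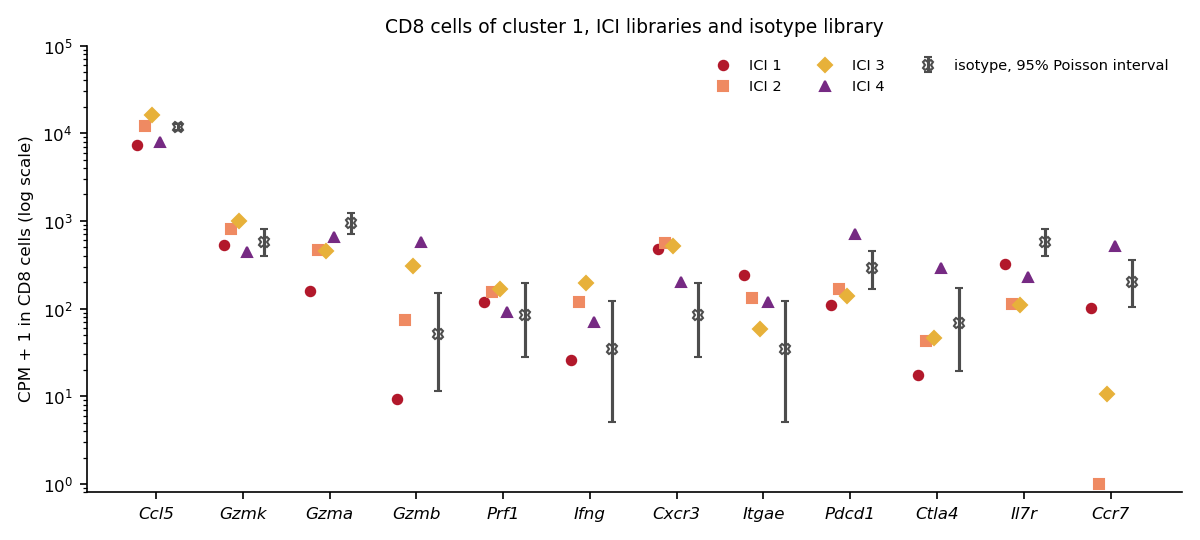
Levels of 12 genes in CD8 effector cells of each ICI library (filled) and of isotype (open), as CPM plus 1 on a log scale. Bars on isotype are exact Poisson 95% intervals, which cover counting error only. Cxcr3 lies above the isotype value and Il7r below it in 4 of 4 ICI libraries, and Pdcd1 and Ctla4 are highest in ICI 4.

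Of the gene lists, class I presentation had the most members on the same side, with 11 of 15 genes above isotype in each ICI library and 1 below, against 38% and 22% of all genes, at a median log2 fold change of 0.50 against 0.26 for all genes tested. None was called. B2m, the shared light chain of class I molecules, was at 2267, 2808, 3268 and 1966 CPM in ICI, against 1834 CPM in isotype. H2-K1 was at 316, 1494, 1191 and 349 CPM, against 320 CPM, so that ICI 2 and ICI 3 were high and ICI 1 was level with isotype. No list had a called gene.

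Whether ICI changed CD8 effector cells and CD4 cells of cluster 1 differently was tested as an interaction over all 5 pairs. Of 8033 genes, 1 passed (0.0124%), again Tg, with a log2 difference of -8.18 (adjusted p = 0.0254), and 488 (6.07%) had an unadjusted p under 0.05. It rested on the same isotype cell, and the call was lost without ICI 1 or without ICI 2. No gene passed by DESeq2, where 119 were under 0.05 before adjustment. Several genes moved between libraries in the same way in both sets. Pdcd1, Ctla4, Icos and Fos were highest in ICI 4 in CD8 effector cells and also in CD4 cells, where Icos was at 487, 524, 645 and 1430 CPM in ICI 1 to 4 and 724 CPM in isotype.

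Cell cycle calls of the deposited table followed the libraries as well. Cells called S or G2M were 42.9%, 60.2%, 55.2% and 5.62% of CD8 effector cells in ICI 1 to 4 and 6.67% in isotype, and 41.6%, 61.3%, 61.9% and 5.96% of CD4 cells and 0% in isotype. Mki67, a gene of dividing cells, was seen in 4.08%, 8.74%, 5.71% and 2.25% of CD8 effector cells in ICI 1 to 4, so most cells called S or G2M had no Mki67 UMI. The phase calls are not read as cycling. With the S and G2M cells removed, 59 genes were higher and 99 lower in CD8 effector cells than in CD4 cells.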

How the data were processed

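Raw UMI counts of 18767 genes in 10275 cells were used as deposited by the authors, whose cell table also gave each cell's library, cluster number, UMI and gene counts, mitochondrial percent, cell cycle scores and phase. Per the submitters' processing notes, Cell Ranger, Seurat and build mm10 were used. Their versions are not given in the sources used here. The deposited percent values reached 25.0% mitochondrial UMIs, and the deposited scores are Seurat's S and G2M scores, per the file headers. The members and gene lists were chosen with earlier results of these data known.

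UMIs were summed per library and cell set. Genes were tested with edgeR 4.0.16 (TMM scaling, filterByExpr with a minimum count of 10, quasi-likelihood test, Benjamini-Hochberg over all genes tested, threshold 0.05) in R 4.3.3. SEs of log2 fold changes were taken from the test statistic. Cd8a, Cd8b1 and Cd4 were not tested. CD8 and CD4 sums of a library came from the same pool, so library was a block. Deviations of the CD8 sums correlated with those of the CD4 sums of the same library at 0.499, 0.357, 0.348 and 0.726. The highest correlation with the CD4 sums of another library was -0.120, 0.303, 0.322 and -0.281, close to the own value in ICI 2 and ICI 3. The test of ICI against isotype assumes that the lone isotype library varies like the ICI libraries. Shares were compared by exact permutation over libraries (SciPy 1.17.1). The code was tested on simulated data. No doublets were called. Cells with both coreceptors were left out by the rule.

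Text genes were the 12 largest called changes in each direction with 1 sign in all pairs (receptor, ribosomal, mitochondrial and unnamed genes left out), a fixed set of effector, checkpoint and homing genes, and up to 5 highest members of each list. Cst7, Fasl, Cx3cr1, Ccr8, Cxcr4, Il2, Gbp6 and Crtam were named after their values were seen. DESeq2 1.42.0 was an alternative, with other filters, scalings, cell subsets, thinning to 1000 UMIs and leaving out each ICI library. Results for 1 chemokine receptor gene are not reported here.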

Additional observations from a re-analysis of the deposited data

Results flagged for a closer look

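Of 66 sets of 4 ICI values checked with Dixon's test at its 95% critical value, 9 had a library standing apart, and 7 of the 9 were ICI 4. Chance gives about 1 in 20. The part of any library difference in these values was not tested.

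CD8 single-positive cells of cluster 3 made up 14.0% of ICI 4 cells, against 1.89 to 2.75% in ICI 1 to 3. In CD8 effector cells of ICI 4, Pdcd1 was at 705 CPM (108 to 166 CPM in ICI 1 to 3), Ctla4 at 292 CPM (16.6 to 45.0 CPM) and Icos at 864 CPM (158 to 233 CPM). Fos was at 73.6 CPM in ICI 4 (5.54 to 14.2 CPM in ICI 1 to 3), and Kctd12 at 34.7 CPM (4.74 to 8.30 CPM). The CD4 cells of cluster 1 were also highest in ICI 4 for each of these 5 genes. Slamf7 was low in ICI 4, at 67.4 CPM in CD8 effector cells (216 to 237 CPM in ICI 1 to 3), and in CD4 cells it was at 14.8 CPM (118 to 167 CPM).

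Maf and Podnl1 stood apart in ICI 1, each at 66.4 CPM in CD8 effector cells, against 16.6 to 22.2 CPM and 14.2 to 22.5 CPM in ICI 2 to 4. In ICI 1, 14 of the 49 CD8 effector cells had only 1 UMI of Cd8a and Cd8b1 together, and they held 7 of the 8 Maf UMIs and 5 of the 8 Podnl1 UMIs.

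For Tg the ICI effect differed between CD8 effector cells and CD4 cells of cluster 1 by -8.18 on the log2 scale in the test of the difference itself, with all 137 isotype UMIs in 1 CD8 effector cell.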

How the results depend on the processing

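Of 50 genes named in the comparison of CD8 effector cells with CD4 cells, all 50 kept their sign in every alternative that tested them, 21 kept their call in every such alternative, 27 lost it in 1 to 3, and Tox and Gata3 lost it in more. Genes called numbered 331, and 122 by DESeq2, 87 in thinned cells, 158 without S and G2M cells and 144 without cells with B or myeloid UMIs. These last 3 used fewer UMIs or cells. Without an ICI library the count was 236 to 318. Pairing by library mattered most, since the fit with no replicate block called 30 genes (21 higher, 9 lower).

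For ICI against isotype, 1 gene was called, 3 by DESeq2, 11 with no filter on low counts (2 higher, 9 lower), 6 with a term for ICI 4 and isotype (1 higher, 5 lower), and 0 with the highest cell of each gene left out. Leaving out an ICI library gave 1 to 63, with 63 without ICI 4. For the difference of the ICI effect 1 gene was called, 0 by DESeq2, 9 with no filter, and 0 to 7 without an ICI library, with 7 without ICI 3 and 4 without ICI 4. The causes were not tested. The differences in the CD8 effector share and in the CD8 share of typed cluster 1 cells kept their sign in every alternative. The other shares had none. The ICI test without B or myeloid cells was not run, because isotype fell under 10 cells. No paired analysis was possible because ICI and isotype share no pairing and isotype has 1 library. The isotype depth of 59429 UMIs limits every ICI comparison.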
